A study of Mus musculus with 6 samples.

Results

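A total of 76 of the 12626 genes measured in J1 ES cells were close to silent in serum and on at the end of the conversion to 2i+vitC medium. They were chosen by their values: both D0 samples had to lie below -2 and both D13 samples above 1 on the log2 CPM scale, where CPM is the number of reads of a gene scaled to the size of its library, or below 0.25 CPM at D0 and above 2 CPM at D13. These are therefore the values that define the genes, and the rise from D0 to D13 is a description of the choice and not a finding. A total of 95 rows met both limits, of which 19 were left out because their names start with Magea, Xlr, Rhox or Pramel, and none of the 95 shared its name with another row. The cells were wild-type (WT) J1 mouse ES cells, all from 1 line, and their RNA was sequenced in serum medium with LIF (D0) and on D6 and D13 of culture in 2i+vitC. The 2i+vitC medium is serum-free and holds LIF, an inhibitor of Gsk3, the MEK inhibitor PD0325901 and vitamin C, so that LIF and growth on gelatin without feeder cells were common to all 3 days. Each day had 2 biological replicates, which gave 6 samples. Medium and day changed together between D0 and the later days, so that their effects cannot be told apart.

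ES cells are derived from the inner cell mass of the blastocyst and can be kept in culture with LIF. The 2i inhibitors block differentiation signals and hold the cells in a state called ground-state pluripotency, and DNA methylation falls in this medium. Vitamin C is a cofactor of the TET enzymes, which oxidize methylated cytosine and so add to its loss. Promoters of many genes of the germ line and of differentiated tissues carry methylated CpG dinucleotides in serum-grown ES cells, and methylation of a CpG-rich promoter is known to go with silencing. DNA methylation was not measured in these libraries.

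The gene names matched the mouse RefSeq annotation on GRCm38, the build also called mm10, for 63 of the 76, of which 57 matched by their symbol and 6 by an older name. Capital G is missing from all names in the files, and of the other 13 genes 11 are listed as digits only, so these 13 were counted but not named, except LOC100503280. Among the 63, 50 were protein-coding (79.4%, against 97.7% of the 11892 matched genes in the table), 10 were long non-coding RNAs (15.9% against 1.74%) and 3 were transcribed pseudogenes (4.76% against 0.505%). The genes lay on 18 chromosomes. Chromosomes 16 and X held 6 each, chromosomes 7 and 17 held 5 each, and none lay on chromosomes 10, 18 or Y. The 6 on the X chromosome were 9.52% of the 63, against 3.83% of all matched genes, and the families left out by name include X-linked ones. As a share of the matched genes on a chromosome, they made up 1.61% on chromosome 16 and 1.32% on X. This share was 0.826% on chromosome 17 and 0.519% on chromosome 7.

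RefSeq promoters could be matched for 41 of the 76 genes. This is fewer than 80% of them, so that any comparison of their CpG content with other genes would be void, and only single promoters are described. The 250 bases before the start of 4 named genes are printed here with every CpG in capitals, because they span the range from a CpG-rich promoter to a promoter with no CpG among genes that all went from silent to expressed. All 4 sequences are from RefSeq on GRCm38 and are written 5′ to 3′ on the strand of the gene. That of 2510009E07Rik lies on the minus strand at chr16:21694666-21694915, that of Sash3 on the plus strand at chrX:48146186-48146435, that of Igll1 on the minus strand at chr16:16863986-16864235 and that of Slc22a13 on the minus strand at chr9:119209106-119209355.
2510009E07Rik: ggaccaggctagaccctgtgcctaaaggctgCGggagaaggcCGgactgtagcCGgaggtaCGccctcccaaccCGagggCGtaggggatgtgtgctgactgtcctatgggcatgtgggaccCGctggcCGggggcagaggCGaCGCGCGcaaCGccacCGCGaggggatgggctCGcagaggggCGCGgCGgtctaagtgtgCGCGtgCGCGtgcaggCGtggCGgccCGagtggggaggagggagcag
Sash3: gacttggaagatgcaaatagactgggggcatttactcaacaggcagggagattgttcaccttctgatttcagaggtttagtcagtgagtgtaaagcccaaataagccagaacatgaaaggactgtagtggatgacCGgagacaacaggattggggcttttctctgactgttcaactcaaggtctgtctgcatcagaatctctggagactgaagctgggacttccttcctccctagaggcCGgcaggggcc
Igll1: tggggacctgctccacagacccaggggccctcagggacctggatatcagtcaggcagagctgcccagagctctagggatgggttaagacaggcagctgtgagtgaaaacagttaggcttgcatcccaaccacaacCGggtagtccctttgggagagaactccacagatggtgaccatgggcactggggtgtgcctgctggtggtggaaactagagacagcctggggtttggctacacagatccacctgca
Slc22a13: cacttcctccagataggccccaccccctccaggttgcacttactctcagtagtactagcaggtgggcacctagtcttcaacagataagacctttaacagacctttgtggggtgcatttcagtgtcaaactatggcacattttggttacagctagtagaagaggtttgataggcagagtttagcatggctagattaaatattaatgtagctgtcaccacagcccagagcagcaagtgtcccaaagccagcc
The stretch of 2510009E07Rik held 26 CpGs at a GC content of 71.2%, that of Sash3 held 2 at 49.6%, that of Igll1 held 1 at 58.0% and that of Slc22a13 held none at 47.6%. Over the same 250 bases of 32851 RefSeq promoters, the median was 6 CpGs and the quartiles were 2 and 16. Both strands of the 4 stretches were searched for CACGTG, the E-box, for TCCCGC, which resembles E2F sites, for TATAAA, the core promoter element, and for GGGCGG, which is known as the Sp1 site. The E2F-like letters were found in 2510009E07Rik, and there was no other match within these 250 bases. When the 50 bases after the start were included, the E-box letters were present in Sash3. Those of the core promoter element were then present in Slc22a13. In the 250 bases before the start of the 32851 promoters, the E-box letters were present in 6.02% and the E2F-like letters in 16.9%. Those of the core promoter element were present in 12.4% and those of the Sp1 site in 32.7%.

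The samples held 73230745 to 83688345 reads on genes, and 3 reads were at most 0.042 CPM. At D0, the 76 genes had at most 21 reads in a sample, with medians of 6 and 7 reads in the 2 replicates. There were 11 genes with 0 reads in 1 of the D0 samples and none with 0 reads in both, so that their D0 level was low but not zero at this depth. At D13 they had between 147 and 4291 reads. Within a day, the 76 genes had a median SD of 0.69 in serum, 0.21 on D6 and 0.36 on D13 on the log2 scale (n = 2), against 0.24, 0.10 and 0.27 over all genes. Replicate 1 was above replicate 2 in 39 of the 76 genes at D0, in 49 at D6 and in 55 at D13, with a median difference of 0.42 at D13, whereas over all genes at D13 replicate 1 was higher in 50.6% with a median difference of 0.01.

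The 12 markers of ES cells measured, among them Pou5f1, Sox2 and Nanog, summed to between 5572 and 7994 CPM in the 6 samples. They did not move together from D0 to D13: Lin28a and Utf1 fell, with log2 differences of -4.91 and -2.96, Tfcp2l1 rose by 3.17, and the other 9 changed by less than 4-fold. Lists of markers of primitive endoderm (6 measured), trophoblast (6), fibroblasts (4), neural cells (5) and mesoderm (1) held none of the 76 genes. None of their measured genes passed the test for a rise from D0 to D13. The neural marker Sox1 rose by 1.86 (limma adjusted p = 0.0023), which was short of the 4-fold limit. Of the 5 neural markers, 2 fell past the limits, beside 6.01% of all genes. The summed level of fibroblast markers was 12.3 to 32.2 CPM at D0 and 5.66 to 8.83 CPM later, and that of neural markers was 184 to 245 CPM at D0 and 101 to 132 CPM later. The sums were 155 to 242 CPM at D0 and 89.3 to 131 CPM later for primitive endoderm, 183 to 211 and 99.6 to 116 CPM for trophoblast, and 1.53 to 3.28 and 1.59 to 3.01 CPM for mesoderm. In bulk RNA, expression in more cells and more RNA per cell cannot be told apart.

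The question asked of the middle time point was whether these genes were already on at D6 and whether they went on changing until D13. At D6, both samples were above the D13 limit of 1 in 47 of the 76 genes, 1 sample was above it in 15, and both samples lay between the 2 limits in 14. Over all 12626 genes, both D6 samples were above 1 in 11340. None of the genes had a D6 sample below -2, and the lowest single D6 value was -0.45. The median of the gene means went from -3.60 in serum to 1.64 on D6 and 2.12 on D13. On the log2 scale, the median gene had covered 91.9% of its D0-to-D13 difference by D6 (quartiles 83.7% and 98.1%, range 54.7% to 126%). This share leans on the very low D0 values: on the linear scale, the median gene stood at D6 at 70.4% of its CPM at D13. All 76 genes passed the test for a rise from D0 to D6 (more than 4-fold, limma adjusted p under 0.05), with log2 differences from 2.92 (Btnl4) to 8.50 (Pramef17) and adjusted p from 4.3e-06 to 0.013, while 5.91% of all genes rose.

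Nothing can be read from this count about the genes themselves. The counts of genes on at D6 and the share covered by D6 were also largely fixed in advance. The D0 values chose the genes, and every row of the deposited table has its third-highest value at or above -0.01 on the log2 scale, so that a gene silent in both D0 samples could be in the table only if it reached about 1 CPM in at least 1 D6 sample. Genes that reached this level only after D6 cannot appear among them. Likewise all 76 passed for D0 to D13, the contrast that chose them, beside 7.45% of all genes. The D13 values used by the rule also enter the comparison of D6 with D13 below.

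**Figure D1:**
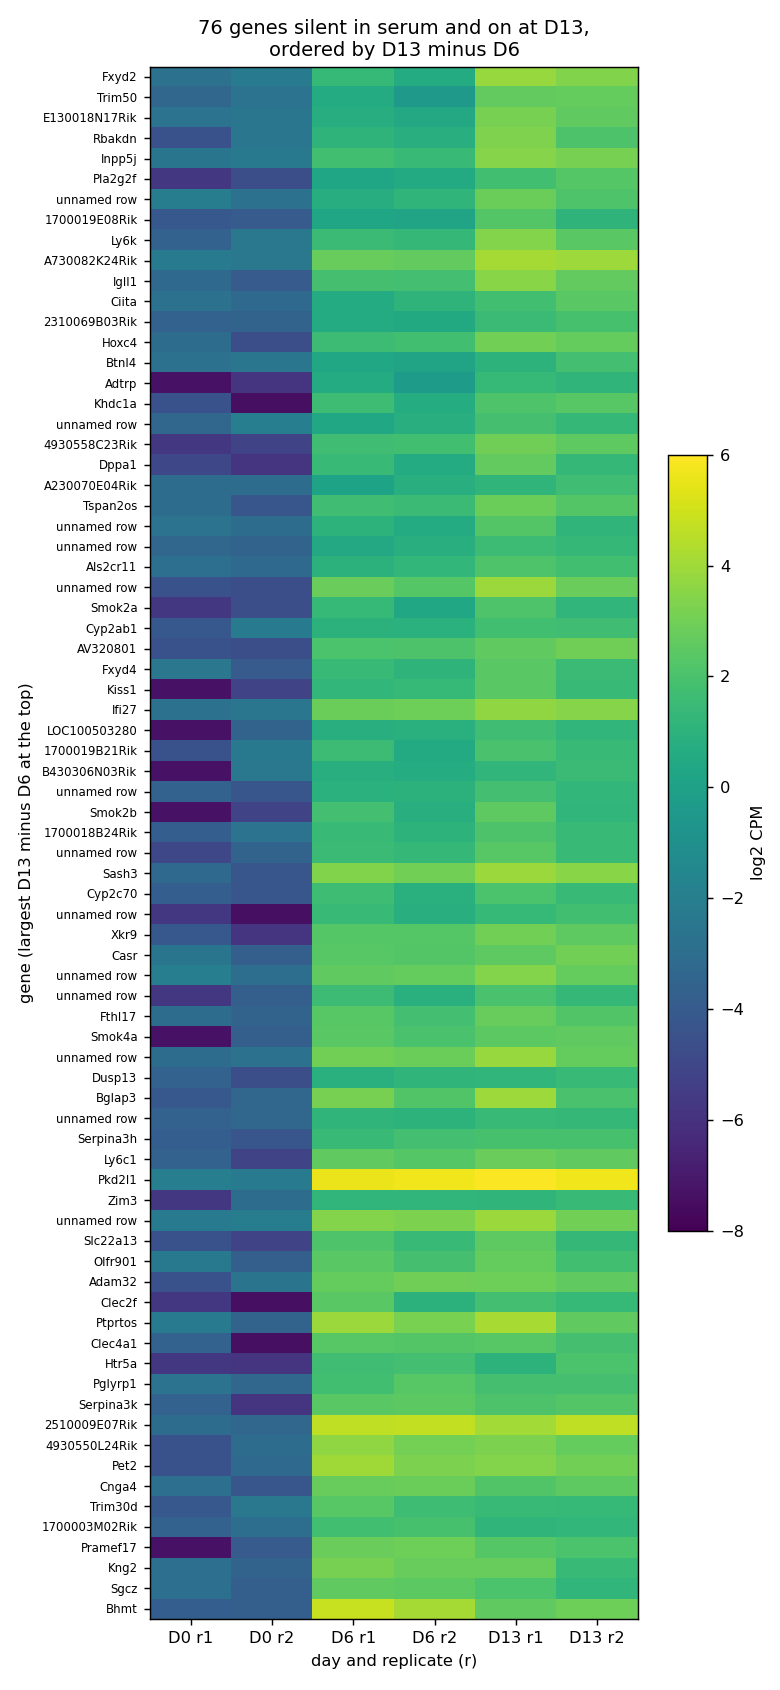
Log2 CPM of the 76 genes (rows, ordered by the D13 minus D6 difference) in the 6 samples (columns, r1 and r2 being replicates), coloured from dark (low) to yellow (high); 13 rows are marked unnamed. The colour changes between D0 and D6 in every row, and the lowest single D6 value is -0.45. The choice of genes and the lower limit of the deposited rows largely fix this change.

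Between D6 and D13, few of these genes passed the test, and those that did were higher at D13. The D13 mean was above the D6 mean in 59 genes and below it in 17. The D6 mean was thus the highest of the 3 days in 22.4% of the 76 genes. It was so in 28.4% of the 155 rows below -2 in both D0 samples, which include the 76. The share over all genes was 21.1%, but it is not alike, since D0 can be the highest day there. Both D6 samples lay below both D13 samples in 41 of the 76 genes, which is 53.9%, and this was so for 30.0% of all genes. Both D6 samples lay above both D13 samples in 8 of the 76, which is 10.5%, against 31.5% of all genes. The median difference from D6 to D13 was 0.51 for the 76 genes and -0.01 for all genes. As the genes were chosen for high D13 values, this lean toward D13 is partly built into the choice. In the limma test from D6 to D13, 3 of the 76 genes rose (0.388% of all genes did) and none fell (0.697% of all genes did). At an unadjusted p under 0.05 in this test, 14 of the 76 rose and 1 fell. The share of all genes at this limit was not computed, so nothing is read from these counts. The count of 3 rests on few samples: it was 0 without D6 replicate 1, 0 without D6 replicate 2, 0 without D13 replicate 1 and 2 without D13 replicate 2.

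The 3 genes that rose were Fxyd2, Trim50 and E130018N17Rik. Fxyd2, the gamma subunit that modulates the sodium-potassium pump in kidney, lies on chromosome 9 from 45399709 to 45410278. Its values were -2.78 and -2.24 in serum, 1.37 and 0.63 on D6 and 3.83 and 3.34 on D13, a difference from D6 to D13 of 2.59 (SE 0.46, limma adjusted p = 0.0268). The days did not overlap, and the D13 samples had 1015 and 759 reads against 203 and 131 at D6. Trim50, an E3 ubiquitin ligase known from gastric parietal cells, lies on chromosome 5 from 135351884 to 135367890, and its values were -3.39 and -2.69 in serum, 0.61 and -0.45 on D6 and 2.66 and 2.68 on D13. The difference was 2.59 (SE 0.53, limma adjusted p = 0.0357), and the D6 replicates were further apart than those of D13. E130018N17Rik, a long non-coding RNA on chromosome 2 from 168152603 to 168154513, was at -2.66 and -2.49 in serum, 0.70 and 0.44 on D6 and 3.11 and 2.58 on D13, a difference of 2.27 (SE 0.44, limma adjusted p = 0.0313).

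After these, the lowest D6 values relative to D13 were found in Rbakdn, Inpp5j and Pla2g2f, and none of the 3 passed the test. Rbakdn, a long non-coding RNA, was at -4.49 and -2.49 in serum, 1.08 and 0.75 on D6 and 3.31 and 2.11 on D13, a difference of 1.80 (SE 0.71, limma adjusted p = 0.163). Inpp5j encodes an inositol polyphosphate 5-phosphatase, which removes a phosphate from phosphoinositides. It was at -2.55 and -2.32 in serum, 1.75 and 1.44 on D6 and 3.47 and 3.12 on D13, with a difference of 1.70 (SE 0.40, limma adjusted p = 0.0502). Pla2g2f encodes a secreted phospholipase of epidermis and was at -5.72 and -4.64 in serum, 0.28 and 0.58 on D6 and 1.79 and 2.31 on D13. In both Inpp5j and Pla2g2f all D13 values were above all D6 values.

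At the other end stood Bhmt, betaine-homocysteine methyltransferase, a liver enzyme that remethylates homocysteine to methionine. Bhmt lies on chromosome 13 from 93616891 to 93637758, and its values were -3.84 and -3.75 in serum, 4.84 and 4.12 on D6 and 2.60 and 2.92 on D13. Both D6 samples were above both D13 samples, and the difference was -1.72 (SE 0.40, limma adjusted p = 0.0511), which passed neither the 4-fold nor the p limit. The next genes in this order were Sgcz, zeta-sarcoglycan, at 2.58 and 2.48 at D6 and 2.02 and 1.24 at D13, and Kng2, a kininogen, at 3.14 and 2.77 on D6 and 2.75 and 1.49 on D13. Trim30d, a member of the TRIM family, was at 2.37 and 1.63 at D6 and 1.49 and 1.36 at D13. Cnga4, a subunit of the olfactory cyclic-nucleotide-gated channel, was at 2.75 and 2.86 on D6 and 2.22 and 2.51 on D13. 4930550L24Rik was at 3.67 and 3.07 on D6 and 3.25 and 2.67 on D13, and its days overlapped, while those of the other 4 did not. The 3 remaining genes of the 8 with higher D6 samples were Pramef17, Serpina3k and 1700003M02Rik, which are named here after their values were seen.

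**Figure D2:**
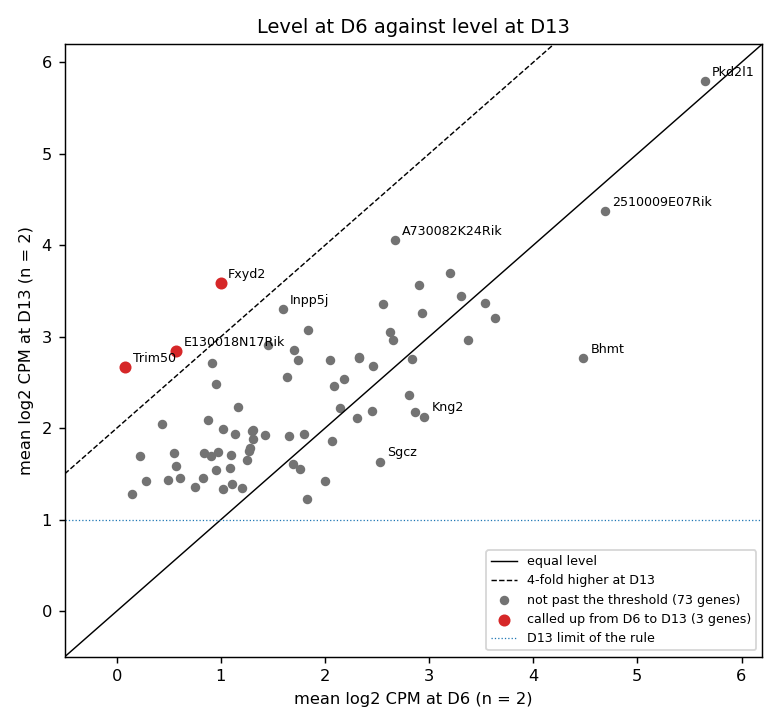
Mean log2 CPM at D6 (x axis) against D13 (y axis) for each of the 76 genes (points, n = 2 samples per day), with a solid line for equal levels, a dashed line for a 4-fold higher level at D13, and a dotted line at the D13 limit of 1. The 3 genes that rose from D6 to D13 are in red at the upper left, and Bhmt lies farthest below the line of equal levels.

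The genes were set into groups by what they are known to do. These groups were made from the names of the 76 genes after the genes were known, so that they carry no test, and their counts are descriptions. Counts of genes whose D6 and D13 samples did not overlap stand beside 30.0% of all genes with D6 below and 31.5% with D6 above. The first held 8 channels, transporters and receptors, of which 7 had both D6 samples above 1, with a median difference from D6 to D13 of 0.14. Pkd2l1, a cation channel of the polycystin family known from sour-taste cells, lies on chromosome 19 from 44147637 to 44248328 and was at -2.01 and -2.24 in serum, 5.58 and 5.72 on D6 and 5.91 and 5.68 on D13, or 60.0 and 51.2 CPM at D13 from 0.247 and 0.212 CPM at D0. D6 and D13 overlapped. Casr, the calcium-sensing receptor of the parathyroid, was at -2.55 and -3.75 in serum, 2.37 and 2.28 on D6 and 2.51 and 3.02 on D13. Htr5a, a serotonin receptor of brain, was at -5.72 and -5.86 in serum, 1.69 and 1.82 on D6 and 1.05 and 2.06 on D13, and Slc22a13, an organic anion transporter of kidney, was at -4.49 and -5.13 in serum, 2.15 and 1.46 on D6 and 2.54 and 1.33 on D13. The olfactory receptor gene Olfr901 was at 2.42 and 1.86 at D6 and 2.69 and 1.75 at D13, and Fxyd4, a relative of Fxyd2, was at 1.50 and 1.08 on D6 and 2.42 and 1.52 on D13. In Casr both D13 samples were above both D6 samples, while in Htr5a, Slc22a13 and Olfr901 the days overlapped.

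Of the 8 enzymes, 2 (Bhmt and Inpp5j) had both D6 samples above 1, and both D6 samples lay below both D13 samples in 6. Their median difference from D6 to D13 was 0.83. Besides Bhmt, Inpp5j and Pla2g2f, the group held the cytochromes P450 Cyp2ab1 and Cyp2c70. Cyp2ab1 was at -4.13 and -2.16 in serum, 0.99 and 0.96 on D6 and 1.76 and 1.72 on D13, and Cyp2c70, which makes muricholic acids in mouse liver, was at -3.84 and -4.28 in serum, 1.66 and 0.89 on D6 and 2.05 and 1.46 on D13. Dusp13, a dual-specificity phosphatase of testis and muscle, was at 0.87 and 1.17 at D6 and 1.19 and 1.47 at D13. Adtrp, a hydrolase of fatty-acid esters, was at 0.61 and -0.31 at D6 and reached 1.39 and 1.16 at D13.

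A group of 10 genes is known from the immune system, and 7 of them had both D6 samples above 1. Sash3, a signalling adaptor of lymphocytes, lies on the X chromosome from 48146436 to 48161565 and was at -3.21 and -4.28 in serum, 3.37 and 3.03 on D6 and 3.89 and 3.51 on D13. Its 2 CpGs upstream are shown above. Igll1, the surrogate light chain of the pre-B cell receptor, was at -3.21 and -3.99 in serum, 1.85 and 1.82 on D6 and 3.51 and 2.64 on D13. The D13 samples of both genes were above their D6 samples. Ifi27, an interferon-inducible gene, was at -2.78 and -2.49 in serum, 2.87 and 2.93 on D6 and 3.69 and 3.44 on D13, and this name is also an older name of Ifi27l2a. Ciita, the transactivator of MHC class II genes, was at -2.78 and -3.20 in serum, 0.61 and 1.13 on D6 and 1.77 and 2.41 on D13. Ly6c1, a surface protein of leukocytes, was at 2.61 and 2.30 at D6 and 2.79 and 2.57 at D13. Pglyrp1, a peptidoglycan-binding protein of neutrophils, was at 1.77 and 2.36 on D6 and 1.87 and 1.84 on D13, and the lectin Clec4a1 was at 2.38 and 2.23 on D6 and 2.36 and 1.85 on D13. The group also held the lectin Clec2f, Trim30d and the butyrophilin-like gene Btnl4.

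The 12 genes known from germ cells and early embryos had both D6 samples above 1 in 8, both D6 samples below both D13 samples in 4 and above them in 2, beside 30.0% and 31.5% of all genes. Ly6k, a surface protein needed for sperm migration, was at -3.60 and -2.40 in serum, 1.56 and 1.34 on D6 and 3.42 and 2.40 on D13. Adam32, a testis member of the ADAM family, was at -4.49 and -2.59 in serum, 2.71 and 2.96 on D6 and 2.94 and 2.58 on D13, with overlap between D6 and D13. Dppa1 was named for its expression in pluripotent cells and was at -4.98 and -5.86 in serum, 1.44 and 0.61 on D6 and 2.64 and 1.34 on D13, so that it too was near silent in serum. Khdc1a, of an oocyte and embryo KH-domain family, was at -4.49 and -7.45 in serum, 1.66 and 0.67 on D6 and 2.12 and 2.35 on D13. Pramef17, a PRAME-family gene that RefSeq now lists as Pramel14, was kept since its listed name does not start with Pramel. It had no read in D0 replicate 1 and was at -7.30 and -3.99 in serum, 2.78 and 2.94 on D6 and 2.33 and 2.02 on D13, with both D6 samples above both D13 samples. The 2 X-linked genes of the group match RefSeq by older names only. Pet2 (now Dcaf8l) was at -4.49 and -3.20 in serum, 4.03 and 3.24 on D6 and 3.42 and 2.99 on D13, and Fthl17 (now Fthl17e), a ferritin heavy-chain-like gene, was at -3.05 and -3.54 in serum, 2.35 and 1.82 on D6 and 2.74 and 2.17 on D13.

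Smok2a and Smok2b, sperm motility kinases, and Smok4a, annotated as a transcribed pseudogene, were 3 genes with a shared name stem. Smok2a was at -5.72 and -4.64 in serum, 1.40 and 0.40 on D6 and 2.17 and 1.22 on D13. Smok2b was at -7.30 and -5.13 in serum, 1.83 and 0.78 on D6 and 2.55 and 1.20 on D13, and Smok4a was at -7.30 and -3.75 in serum, 2.39 and 1.96 on D6 and 2.48 and 2.60 on D13. In Smok2a and Smok2b, replicate 2 was below replicate 1 on D6 and on D13. These 3 genes are near-identical copies, and reads may have been split between them or with Smok3a, which is also in the table. Their levels are thus uncertain. The same holds for Serpina3h and Serpina3k, for Bglap3 beside Bglap and Bglap2, and for Fthl17, Pramef17 and Ly6c1. Als2cr11 (now C2cd6) and 1700003M02Rik (now Cfap206), both known from the sperm flagellum, made up the rest of the group.

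The 5 genes of secreted proteins all had both D6 samples above 1. Kiss1, which encodes the kisspeptin hormone, was at -7.30 and -5.13 in serum, 1.24 and 1.37 on D6 and 2.44 and 1.51 on D13, and it had no read in D0 replicate 1. In RefSeq, Kiss1 (chromosome 1 from 133321887 to 133329722) overlaps Golt1a. Bglap3, a relative of osteocalcin, was at -4.13 and -3.36 in serum, 3.12 and 2.19 on D6 and 3.97 and 1.96 on D13, and its D13 replicates spanned those of D6. Serpina3k, a serine protease inhibitor of plasma, was at -3.60 and -5.86 in serum, 2.44 and 2.45 on D6 and 2.11 and 2.28 on D13. Serpina3h, annotated as a transcribed pseudogene, was at -3.84 and -4.28 in serum, 1.50 and 1.81 on D6 and 1.90 and 1.93 on D13.

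The 10 long non-coding RNAs had a median difference from D6 to D13 of 1.06, and the median D6 level was 48.1% of that at D13 in CPM. Both D6 samples lay below both D13 samples in 7. A730082K24Rik was at -2.17 and -2.40 in serum, 2.73 and 2.61 on D6 and 4.13 and 3.98 on D13, a difference from D6 to D13 of 1.38 (SE 0.35, limma adjusted p = 0.0573). Ptprtos was at -2.26 and -3.54 in serum, 3.89 and 3.18 on D6 and 4.14 and 2.59 on D13, with D13 replicates that spanned those of D6. 1700019E08Rik was at -4.13 and -3.99 in serum, 0.28 and 0.17 on D6 and 2.28 and 1.12 on D13. Ptprtos and Tspan2os are named as antisense transcripts, and Tspan2os and Zim3 overlap Tspan2 and Usp29 on the opposite strand. A230070E04Rik overlaps Nefm, and its strand was not at hand. The protein-coding Pkd2l1, Ciita and Cnga4 overlap Scd3, Dexi and Fam160a2, and Smok4a, annotated as a transcribed pseudogene, overlaps 2700054A10Rik, all on opposite strands. 2700054A10Rik itself rose from D0 to D13 by 3.48, and the differences of Scd3, Dexi and Fam160a2 were 1.69, 1.00 and -0.02, each below 4-fold. The libraries were strand-specific, but whether strand was used in counting is not given in the sources used here, so reads of these 7 pairs may not be told apart. Usp29, Tspan2 and Nefm changed by less than 4-fold from D0 to D13, with differences of 1.99, 1.51 and 1.59.

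Among the 10 genes outside these groups, 2510009E07Rik is a protein-coding gene on chromosome 16 from 21649045 to 21694665, and was at -3.05 and -3.36 in serum, 4.64 and 4.73 on D6 and 4.06 and 4.67 on D13. D6 and D13 overlapped, and its upstream stretch was the CpG-rich one of the 4 shown. Hoxc4, a homeobox transcription factor of the trunk, was at -3.05 and -4.64 in serum, 1.62 and 1.79 on D6 and 3.03 and 2.67 on D13, with D13 above D6. Xkr9, of a family of phospholipid scramblases, was at 2.32 and 2.33 at D6 and 3.05 and 2.50 at D13. Of the 13 genes without a RefSeq match, all had a higher mean at D13 than at D6, with differences from 0.14 to 1.54, and none passed the test. LOC100503280 was at -7.30 and -3.54 in serum, 0.80 and 0.86 on D6 and 1.71 and 1.19 on D13.

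**Figure D3:**
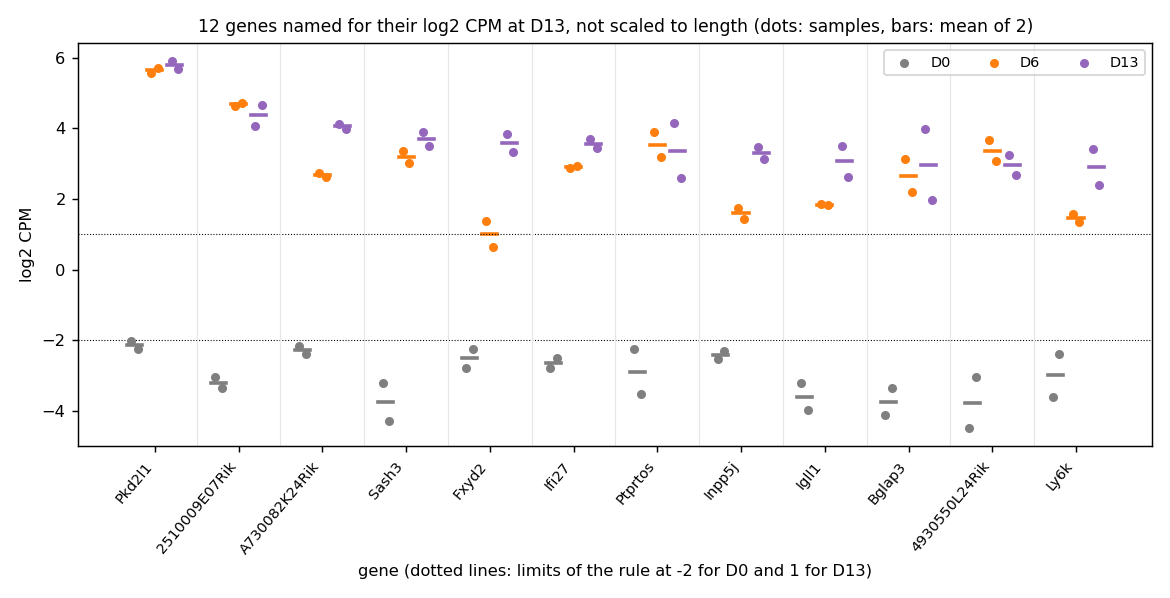
Log2 CPM in each sample (dots) and the mean of 2 (bars) at D0, D6 and D13 for the 12 genes named for their log2 CPM at D13, which is not scaled to length, among those with a current RefSeq symbol; dotted lines mark -2 and 1. All D0 dots lie below -2, the D6 dots of Fxyd2, A730082K24Rik, Inpp5j, Igll1 and Ly6k lie well below their D13 dots, and those of Pkd2l1, 2510009E07Rik, Ptprtos, Bglap3 and 4930550L24Rik overlap them.

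To set levels of different genes side by side, CPM was scaled per kb of exon (GENCODE vM21 exons, at hand for 62 of the 76). At D13 the median was 2.32 CPM per kb and the range 0.457 to 18.8. The highest were the non-coding Ptprtos (18.8 CPM per kb), Pkd2l1 (15.8), and the non-coding Rbakdn (11.2) and Tspan2os (10.2), and the lowest were Ciita (0.457) and B430306N03Rik (0.489). The order at the top rests on D13 replicate 1. In replicates 1 and 2, Ptprtos was at 28.0 and 9.56 CPM per kb, Rbakdn at 15.6 and 6.79, and Tspan2os at 12.4 and 7.99. In replicate 2 alone, Ptprtos was thus below Pkd2l1 (14.5), and Rbakdn was below Tspan2os, 4930558C23Rik (7.95) and Ifi27 (7.38). The authors counted on RefSeq, whose exons can differ from these.

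Few of these genes were on lists of related genes. The counts on each list stand beside 7.45% of all genes that rose and 6.01% that fell from D0 to D13. Of 66 measured germ line and meiosis genes, 21 rose from D0 to D13 (more than 4-fold, limma adjusted p under 0.05) and 2 fell, with 1 (Pet2) among the 76. Of 15 measured genes on a list of X-linked testis-expressed families outside those left out, 4 rose, 1 fell and 1 (Fthl17) was among the 76. The list was made partly by the first letters of names. It also took in Slx1b, Slx4, Slx4ip, Ssx2ip and Zfp37, so its counts do not describe X-linked testis genes alone. Of 15 oocyte and early embryo genes, 7 rose, 3 fell and 1 (Khdc1a) was among the 76. Of 26 cytochromes P450 and aldo-keto reductases, 8 rose, 1 fell and 2 (Cyp2ab1 and Cyp2c70) were among the 76. Of 235 solute carriers, 28 rose, 19 fell and 1 (Slc22a13) was among the 76. Of 43 genes with names that start like those of immune surface and cytokine genes, 8 rose, 3 fell and none was among the 76. Of 22 genes with names that start like those of keratin and junction genes, none rose and 5 fell. These 2 lists were taken by the first letters of names only, and also hold genes of other kinds, such as Cd2ap, Cd2bp2 and Dscc1. The median log2 difference from D0 to D13 was 1.21, 0.49, 1.69, 1.50, 0.31, 0.46 and -0.04 over these 7 lists in this order.

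Genes near these genes on the chromosome were then examined, since the rule did not use them. Pairs between 2 of the 76 genes were left out of these counts. Only genes with a RefSeq match have a position here, which leaves out 13 of the 76. Of the other 63, 45 had at least 1 matched gene from outside the 76 within 100 kb, in 135 pairs. In 27 pairs, or 20.0%, the neighbour rose from D0 to D13, and these pairs involved 21 of the 45 genes. Of 45314 pairs between genes outside the 76, with each pair counted from both of its genes, 2821, or 6.23%, had a neighbour that rose. With the pairs within the 76 included, each counted from both of its genes, the neighbour rose in 31 of 139 pairs, or 22.3%. Without these and without neighbours that overlap the gene, the count was 26 of 128 pairs, or 20.3%. Pairs share genes and clusters of related copies, and no test of the difference was made. Within the 76 themselves, 2 pairs lay within 100 kb, Serpina3h and Serpina3k 84081 bases apart and Smok2a and Smok2b 2605 bases apart.

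Several of these neighbours were relatives of the gene or work in the same pathway. Bhmt2, a second homocysteine methyltransferase 18339 bases from Bhmt, was at -0.93 and -3.75 in serum, 4.08 and 3.48 on D6 and 3.07 and 2.92 on D13. Dmgdh, which breaks down the dimethylglycine made by Bhmt and lies 36678 bases away, was at -0.67 and -2.59 in serum, 5.44 and 4.93 on D6 and 4.51 and 4.57 on D13. In all 3 genes both D6 samples were above both D13 samples. Vpreb1, the partner of Igll1 in the surrogate light chain, lies 4416 bases from it and was at -1.52 and -2.32 in serum, 0.80 and 1.02 on D6 and 1.88 and 1.23 on D13. The annotated starts of Trim50 and Fkbp6 face each other 75 bases apart. Fkbp6, a gene of male meiosis on the opposite strand, was at 0.65 and 1.58 in serum, 5.26 and 5.41 on D6 and 7.71 and 7.16 on D13, and as in Trim50 all D13 values were above all D6 values.

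Slc22a14, 2536 bases from Slc22a13, was at -4.13 and -3.99 in serum, 0.43 and 0.39 on D6 and 0.83 and 1.49 on D13, and it missed the D13 limit of the rule in replicate 1. The pseudogene Slc22a13b-ps, 11386 bases away, was at -1.87 and -2.24 in serum, 2.40 and 1.91 on D6 and 3.21 and 1.73 on D13, and reads may be shared between such copies. Next to Serpina3h and Serpina3k, Serpina3m was at -1.07 and -2.49 in serum, 6.14 and 6.15 on D6 and 6.23 and 6.05 on D13. Serpina3i, 8640 bases from Serpina3h, was at -1.28 and -1.43 in serum, 1.52 and 1.49 on D6 and 0.90 and 0.65 on D13. Ly6a, the Sca-1 antigen of stem cells, lies 45987 bases from Ly6c1 and was at 0.46 and -0.39 in serum, 7.87 and 7.53 on D6 and 8.05 and 7.17 on D13. In the Hoxc cluster, Hoxc13 (89283 bases from Hoxc4) was at 0.12 and -0.17 in serum, 3.48 and 3.67 on D6 and 4.72 and 4.58 on D13, and Hoxc12 (79488 bases away) was at -5.72 and -7.45 in serum, 0.66 and 0.97 on D6 and 0.85 and 0.83 on D13 and thus stayed below the D13 limit. Fxyd6, 3550 bases from Fxyd2, was expressed on all days, at 5.96 and 6.88 in serum, 7.68 and 7.19 on D6 and 9.23 and 8.42 on D13.

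**Figure D4:**
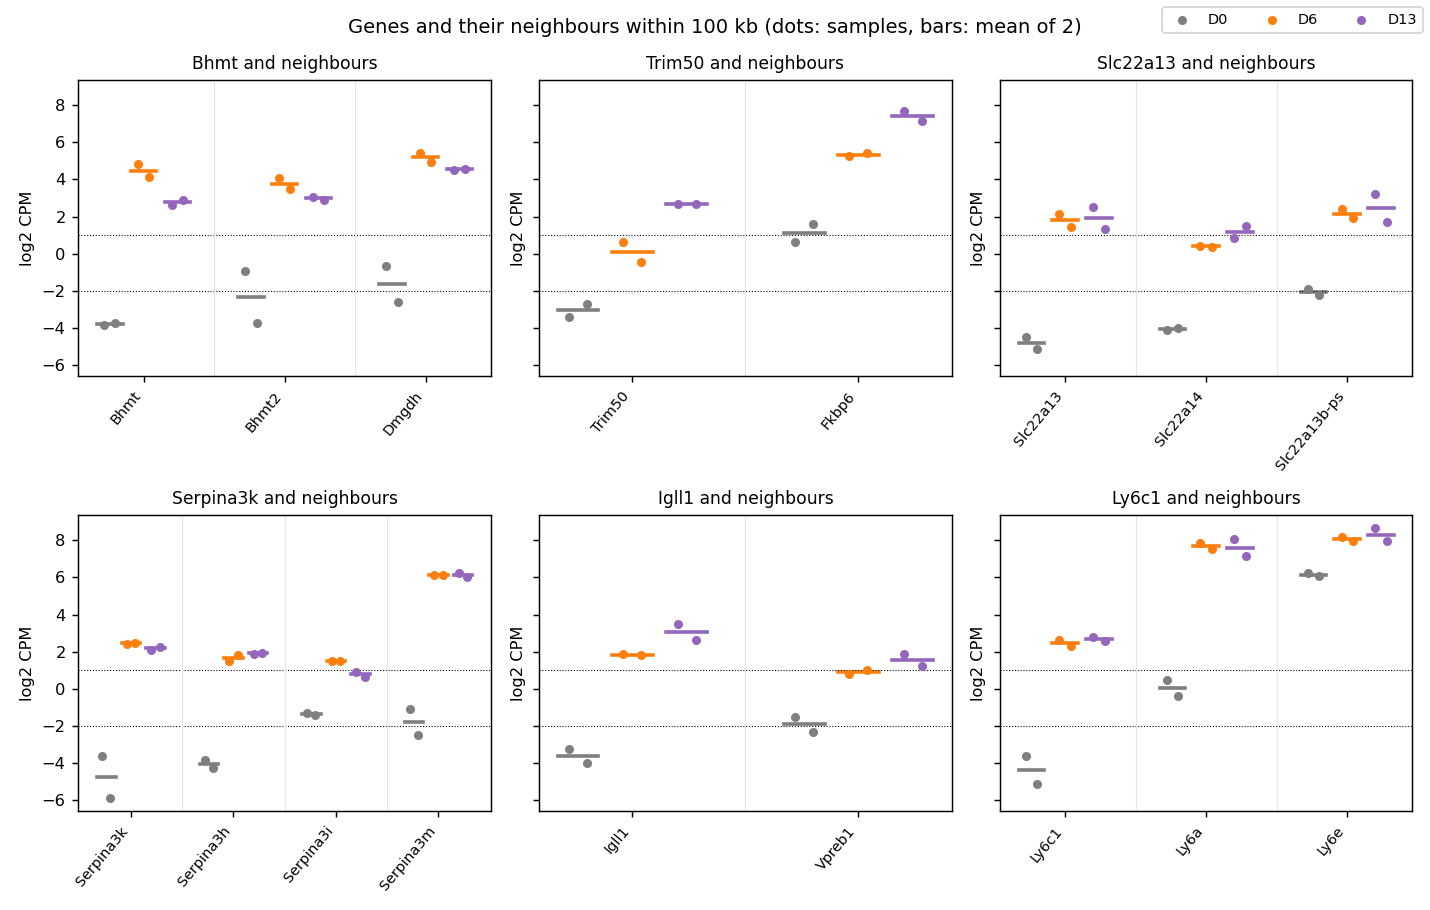
Log2 CPM in each sample (dots) and the mean of 2 (bars) at D0, D6 and D13 for 6 of the genes and for neighbours within 100 kb that rose from D0 to D13; dotted lines mark -2 and 1. Bhmt, Bhmt2 and Dmgdh are highest at D6, Trim50 and Fkbp6 are highest at D13, and Ly6e is above 6 at D0.

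The limits of the rule cut through a continuous range of values. Just inside the D0 limit were Pkd2l1, Cyp2ab1, A730082K24Rik and Fxyd2, whose higher D0 values were -2.01, -2.16, -2.17 and -2.24. Just outside it were Mlana, Slc24a5, Entpd3 and Obox6. Mlana, a melanocyte antigen, was at -1.94 and -2.49 in serum, 0.77 and 1.57 on D6 and 1.53 and 1.06 on D13. Slc24a5, a pigment-cell ion exchanger, was at -2.35 and -1.89 in serum, 3.95 and 3.34 on D6 and 3.25 and 3.06 on D13, and Entpd3, an ectonucleotidase, was at -2.01 and -1.89 in serum, 1.23 and 1.49 on D6 and 4.34 and 3.75 on D13. Obox6, an oocyte homeobox gene, was at -2.66 and -1.89 in serum, 4.43 and 4.36 on D6 and 3.50 and 3.39 on D13. Just inside the D13 limit were Btnl4, Htr5a, 1700019E08Rik and Adtrp, whose lower D13 values were 1.04, 1.05, 1.12 and 1.16. Just outside it were Slc16a5, Creg2, Hal and Akr1cl, whose lower D13 values were 0.97, 0.94, 0.89 and 0.89. Hal, the histidine ammonia-lyase of skin and liver, was at 2.48 in D13 replicate 1 and 0.89 in D13 replicate 2.

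Applied to replicate 1 alone, the rule took 148 genes, of which 97 were also below the D0 limit and 122 also above the D13 limit in replicate 2, and 76 met both. Applied to replicate 2 alone, it took 103 genes, of which 84 were below the D0 limit and 94 above the D13 limit in replicate 1, and 76 met both.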

How the data were processed

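RNA-seq libraries of J1 WT ES cells at D0, D6 and D13 (2 biological replicates per day, grouped by day as labelled) were made with a stranded mRNA kit. The authors mapped reads onto mm10 with TopHat2 2.0.6 and Bowtie 1.0.0, counted them on RefSeq genes with HTSeq 0.6.1, and deposited log2 CPM values (TMM scaling, voom). All 12626 genes and 302 transposon families were tested with limma 3.58.1 (R 4.3.3) with a mean-variance trend, all 6 samples in 1 fit and no block, with Benjamini-Hochberg adjustment over 12928 rows. Calls needed more than a 4-fold difference and an adjusted p under 0.05. The fit was tested on simulated data. The design had foreseen count-based tests among the alternatives, which were not run on log2 values.

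The reads quoted were recovered from the log2 values: after removal of 1 scale factor per library and of the offset of 0.5, 100% of gene values were whole within 0.05 reads. Such counts cover counting error only. Replicate differences correlated across genes at -0.13 for D0 with D6, 0.33 for D6 with D13 and 0.14 for D0 with D13, so that the numbers were not taken to pair samples. Of the gene names, 189 consist of digits, 464 begin in lower case and 44 occur in more than 1 row (104 rows). None was restored. The values of 1 member are not reported here.

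The members, gene lists and limits were chosen with earlier results of these data known. Named genes are those with an exact RefSeq symbol that were among the 12 highest by log2 CPM at D13 (not scaled to length), the 6 highest and 6 lowest for D6 minus D13, the 4 nearest to each limit on either side, on a list, of a name stem with 3 genes, or called from D6 to D13. Further genes were named as members of groups after their values were seen. Positions, promoters and biotypes are from RefSeq GRCm38.p6. Python 3.11.15 with pandas 2.3.3 and numpy 2.4.6 was used for tables and matplotlib 3.10.9 for figures.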

Additional observations from a re-analysis of the deposited data

How the results depend on the processing

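All 76 genes rose from D0 to D6 under the replicate block, without any single sample, in a fit of the 2 days compared, without a trend, with the filter of 10 reads in 2 samples (which removed 0 rows), at a 2-fold minimum, and with voom weights or centring on the median gene, both chosen after seeing the data, while 75 did at an adjusted p under 0.01. From D6 to D13, the 3 genes that rose became 0 at an adjusted p under 0.01 and ranged from 0 to 3 when single samples were left out, and were 3 under the replicate block and the other settings. None fell under any of these settings. Centring shifted samples by -0.05 to 0.04. The number of genes was 18 with limits of -3 and 2, 233 with limits of -1 and 0, 118 by day means and 148 by replicate 1 alone. Both D6 samples were above 1 in 17, 119 and 89 genes with limits of -3 and 2, limits of -1 and 0, and replicate 1 alone. The median share of the log2 rise reached at D6 was 93.9% with limits of -3 and 2 and 90.1% by replicate 1 alone. As stated above, the D6 counts, these shares and the rise of all 76 genes to D6 were largely fixed in advance. The share on the X chromosome was 29.4% with limits of -3 and 2, where only 18 genes passed. It was 6.7% with limits of -1 and 0, 7.8% by day means, 7.1% by replicate 1 alone and 8.2% by replicate 2 alone. The 2 count-based tests planned on recovered reads were not run. The median CpG ratio of promoters was not given, since 41 of 76 promoters were matched. The cause of these changes was not tested, apart from the number of genes, which follows from the limits. With 2 replicates per day an SD rests on 2 values, and D0 levels rest on at most 21 reads.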
